A study of Homo sapiens with 22 samples.

Results

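The regions described here are places in the genome where reads from a CTCF antibody were more frequent at 6 h of treatment than before it and after 72 h. They were chosen by their CTCF counts: the CPM (counts per 1000000 of a library's CTCF counts on chromosomes 1 to 22 and X) at 6 h, with 0.5 added, had to be at least 2 times the value at 0 h and at least 2 times the value at 72 h, in replicate 1 and in replicate 2 alike. Of 65346 CTCF regions on these chromosomes, 1409 (2.16%) met the rule, and they are called transient regions below. Exchanging the times in the same rule gave 324 regions that were high at 0 h, 2181 that were high at 72 h and 374 that were low at 6 h. All CTCF values of the transient regions were used in choosing them, directly or through the same libraries, and are given as a description without a test.

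The cells were K562, a human leukemia line with erythroid and megakaryocytic potential, labelled wild type, in medium with 25 nM PMA, a phorbol ester that activates protein kinase C and drives the line toward a megakaryocyte-like state. Cells were fixed with formaldehyde after 0, 6 or 72 h of PMA, and the 0 h cells are the untreated control. The titles call the assay CNR, taken here to mean CUT&RUN: a nuclease is brought to the antibody and frees the DNA beneath the bound protein. Antibodies against CTCF, H3K27ac and Jun were used at all 3 times and one against Rad21 at 0 and 72 h, which gave 22 libraries in 11 groups of 2 replicates. All groups share 1 cell line, and nothing says that replicates came from separate cultures, so p-values measure the spread between these samples only, which may be technical. In such bulk samples, a protein bound in more of the cells and a protein bound more firmly in each cell cannot be told apart.

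CTCF is a zinc finger protein that binds a long DNA motif and stops the cohesin ring as it extrudes DNA loops, so that CTCF sites often mark loop anchors and domain borders. Rad21 is the subunit that closes the cohesin ring, and its occupancy shows where cohesin rests. Jun is a subunit of AP-1, the dimeric factor that binds enhancers soon after protein kinase C is activated. H3K27ac, acetylated lysine of histone H3, marks active promoters and enhancers.

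Total counts in regions on chromosomes 1 to 22 and X were 1967271 to 5172550 per CTCF library, 12380484 to 27072211 for H3K27ac, 3609205 to 17046339 for Jun and 3092965 to 4611697 for Rad21. Both Jun libraries at 72 h were deeper (15465154 and 17046339 counts) than any other Jun library. CTCF counts outside these chromosomes made up 34.8% of the table's counts in 6 h replicate 1 and 14.8 to 24.8% in the other 5 CTCF libraries, and the part of this in the results was not tested. As a check on cell identity, regions of H3K27ac at 0 h covered 6 of 8 genes that mark K562 (22.9 to 165 CPM at the highest region), 7 of 7 megakaryocyte genes (0.0790 to 110 CPM) and 7 of 10 genes of other cells (0.266 to 75.4 CPM). HBG1 and HBE1 had no region among the K562 genes, and CD14, ALB and APOA1 had none among the genes of other cells. The ranges overlap, so this acetylation does not separate the 3 lists.

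Only 3 transient regions overlapped one of the promoter windows given by RefSeq (GRCh38.p14), which run from 250 bases before to 50 bases after a gene start. These are 0.213% of the transient regions, against 9.64% of other CTCF regions and 1.92% of those without an H3K27ac region, and 1337 of the 1409 lie on chromosomes with windows used here. The windows below are the 2 that share more than 100 bases with a transient region, and the shared bases are in capitals. The first, on the plus strand at chr7:30697492-30697791, belongs to LOC105375220, an uncharacterised locus inside the span of CRHR2, a receptor for corticotropin-releasing hormone. The second, on the minus strand at chr4:120007664-120007963, belongs to the uncharacterised locus LOC124900769.
LOC105375220: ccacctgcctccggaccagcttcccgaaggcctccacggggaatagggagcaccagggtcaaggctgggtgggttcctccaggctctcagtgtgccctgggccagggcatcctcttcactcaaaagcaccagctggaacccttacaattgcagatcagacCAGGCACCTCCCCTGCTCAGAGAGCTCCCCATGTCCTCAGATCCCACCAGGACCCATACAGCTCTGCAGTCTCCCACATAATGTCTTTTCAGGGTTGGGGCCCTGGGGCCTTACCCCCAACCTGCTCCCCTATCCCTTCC
LOC124900769: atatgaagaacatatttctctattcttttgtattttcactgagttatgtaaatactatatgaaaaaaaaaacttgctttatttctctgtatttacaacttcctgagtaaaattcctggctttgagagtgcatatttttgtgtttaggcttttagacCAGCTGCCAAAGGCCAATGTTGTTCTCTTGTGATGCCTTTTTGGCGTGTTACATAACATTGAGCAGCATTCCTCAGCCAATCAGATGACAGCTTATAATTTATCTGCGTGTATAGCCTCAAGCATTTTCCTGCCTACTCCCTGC
Both runs are written 5′ to 3′ along the gene. Neither window held the core of the CTCF motif, CCNNNAGNNGGC, or the AP-1 motif TGANTCA on either strand, while 10.6% and 7.71% of all 35116 windows of 300 bases held them. These letters were searched in the windows alone, and the transient regions run past the windows on one side. The transient region at LOC105375220 (chr7:30697652-30698031) shared 140 bases with its window and had CTCF values of 10.4 and 31.2 CPM at 0 h, 64.0 and 79.8 after 6 h, then 22.3 and 32.7 after 72 h. Regions of Jun, Rad21 and H3K27ac also lay on it. Its Jun values were 16.2 and 21.9 CPM at 0 h, 29.5 and 19.2 after 6 h, then 2.57 and 3.10 after 72 h, so the 72 h libraries lay below all others and those of 0 and 6 h overlapped. The fall from 0 to 72 h was −2.74 ± 0.248 (log2 fold change ± SE, edgeR adjusted p = 3.26e-08), and Rad21 rose over the same time, from 20.1 and 24.7 CPM to 45.0 and 64.3 (1.29 ± 0.249, adjusted p = 0.000774). The region at LOC124900769 (chr4:120007551-120007807) shared 144 bases and was weak, with 9 and 7 CTCF counts at 0 h, 27 and 19 after 6 h, then 3 and 17 after 72 h. It had a Jun region that did not pass the test between any times and no region of Rad21 or H3K27ac.

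At the transient regions, the median CTCF value was 2.59 and 3.67 CPM in the 0 h libraries, 13.1 and 17.8 after 6 h, then 3.06 and 5.03 after 72 h. The other 63937 CTCF regions kept close medians of 7.45 and 6.88, 7.32 and 7.12, and 8.56 and 8.89 CPM. The transient regions thus lay below the typical CTCF region before PMA and at 72 h and above it at 6 h. The median ratio of 6 h to 0 h was 4.46 in replicate 1 and 4.10 in replicate 2, and that of 6 h to 72 h was 3.87 and 3.14. The smallest of a region's 4 ratios had a median of 2.63 and reached 6.05. In 445 transient regions all 4 ratios were at least 3, and in 92 at least 4. At 72 h the median of replicate 1 lay between the medians of the 0 h libraries, and that of replicate 2 lay above both. Mean CPM was higher at 72 h than at 0 h in 1026 of the 1409. Among the 1224 that passed the filter on low counts, the median log2 fold change was 0.30, and 71.2% were above 0. At other CTCF regions that passed it, the median was 0.02, and 50.7% were above 0.

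**Figure D1:**
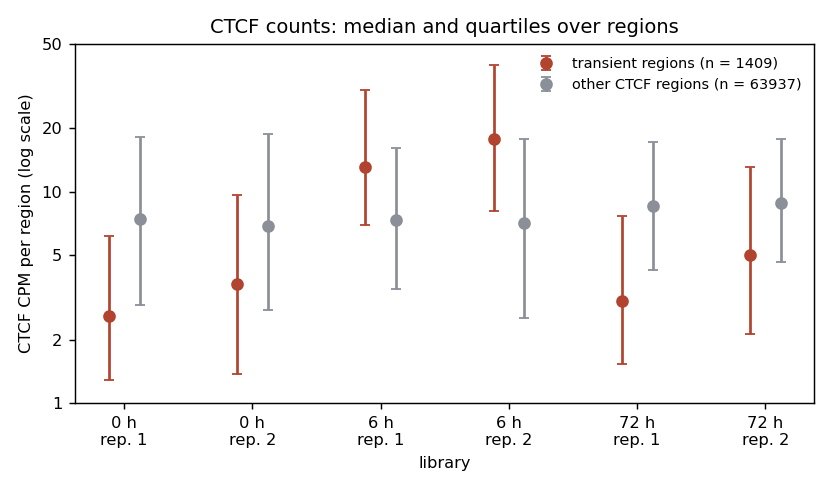
Median CTCF CPM per region (points) with the lower and upper quartiles (bars) in each of the 6 CTCF libraries, on a log axis, for the 1409 transient regions and the 63937 other CTCF regions. The transient regions lie at 13.1 and 17.8 CPM at 6 h and at 5.03 or less at 0 and 72 h, while the other regions stay between 6.88 and 8.89.

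The counts behind many transient regions were small. Median counts per region were 8 and 8 at 0 h, 34 and 35 after 6 h, then 10 and 26 after 72 h. In 866 regions a 0 h library held fewer than 10 counts, in 19 both 0 h libraries held none, and in 224 a 6 h library held fewer than 10. The share of CTCF regions that were transient was 1.62 to 2.94% in each of 10 equal groups of regions ordered by mean CPM. It was highest in the strongest group and lowest in the group next to it. The mean CPM includes the 6 h values that the rule used. At the edge of the rule, the 3 members with the smallest ratio all stood at 2.0004 and the 3 closest regions left out at 1.9989. Inside the edge, the region in SAMD4A had 1.30 and 0.459 CPM at 0 h, 5.40 and 4.07 after 6 h, then 2.45 and 1.16 after 72 h. Just outside it, the region in JAZF1 had 1.30 and 2.29, 4.62 and 5.08, and 1.22 and 1.93 CPM. These neighbours differ by a few counts.

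Deposited peaks were called by the authors in each library by itself. They come from the CTCF libraries that the rule used, so more peaks at 6 h on transient regions follow from the choice and are a description. A CTCF peak lay on 14.9 and 21.1% of transient regions at 0 h, on 47.4 and 81.1% at 6 h, and on 17.4 and 37.8% at 72 h. At the other CTCF regions the shares were 50.7 and 42.3%, 26.1 and 38.9%, and 40.3 and 61.3%. The 6 h libraries were the 2 with the most peaks on transient regions and the 2 with the fewest on the others. Both 6 h libraries had a peak on 623 transient regions (44.2%), and 133 of these had no peak at 0 or 72 h. A peak stood in all 6 libraries on 149 regions and in none on 210. Of the 527 with a peak in 1 library, 471 had it in 6 h replicate 2. With peaks of a −log10 q of at least 10, the share with a peak in both 6 h libraries was 36.3%.

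Cohesin was higher at 72 h than at 0 h at most of the transient regions that could be tested. Of the 1409 transient regions, 939 (66.6%) overlapped a region of the Rad21 table, against 59.6% of the other CTCF regions and 44.7% of those without an H3K27ac region. The median Rad21 value was 3.62 and 4.85 CPM (scaled with TMM factors) at 0 h and 9.53 and 14.3 at 72 h, and the other CTCF regions stood at 6.29 and 6.12, then 6.55 and 6.41. Rad21 at the transient regions was thus below its typical level at 0 h and above it at 72 h. The rule itself required CTCF to be lower at 72 h than at 6 h. Mean CTCF CPM was still higher at 72 h than at 0 h in 1026 of all 1409 transient regions. Of 928 regions that could be tested, 767 (82.7%) rose from 0 to 72 h in edgeR's quasi-likelihood test over all Rad21 regions (adjusted p under 0.05), against 15.4% of all Rad21 regions and 14.2% of those at other CTCF regions. None fell, where 7.91% of all Rad21 regions did, and none did at an unadjusted p under 0.05 or with DESeq2. Only transient regions with a Rad21 region could be tested, and some may have one only through their 72 h signal. A deposited Rad21 peak lay on 424 transient regions in either 0 h library and on 838 in either 72 h library. The part of this in the shares of rises and falls was not tested. The median log2 fold change was 1.54 at the transient regions, −0.05 over all Rad21 regions and −0.28 at other CTCF regions that overlap no H3K27ac region.

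Most weak transient regions had no Rad21 region, and among those tested more of the strong ones passed the test. The transient regions were split into 3 equal groups by their CTCF value at 6 h. A Rad21 region overlapped 106 of 470 in the lowest group, 374 of 469 in the middle and 459 of 470 in the highest. Rad21 rose in 49 of the 98 tested regions of the lowest group, 73.6% of 371 in the middle and 96.9% of 459 in the highest. Median log2 fold changes of the tested regions were 1.35, 1.52 and 1.57. Inside and outside protein-coding gene spans the share was 79.8 and 84.5%. The share of all Rad21 counts that fell on transient regions was 0.945 and 1.15% at 0 h and 2.31 and 3.34% at 72 h (1.05 ± 0.146 and 2.83 ± 0.733, mean ± SD, n = 2 each). The groups did not overlap, and with 2 libraries against 2 an exact permutation test cannot give a p below 0.333. Deposited Rad21 peaks lay on 20.2 and 27.4% of transient regions at 0 h and on 48.4 and 56.4% at 72 h, while at other CTCF regions they went from 32.7 and 34.3% to 31.8 and 24.9%. Without 72 h replicate 2, 399 regions rose. No Rad21 library of 6 h was analysed here.

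Jun went the other way. A Jun region overlapped 585 (41.5%) of the transient regions, against 43.7% of other CTCF regions and 18.7% of those without an H3K27ac region. Median Jun values were 5.83 and 6.02 CPM at 0 h, 8.85 and 7.66 after 6 h, then 1.43 and 1.1 after 72 h. Both 72 h libraries lay far below all 4 earlier ones. They were also the deepest Jun libraries, and the part of depth in this difference was not tested. Of 582 tested regions, 553 (95.0%) fell from 0 to 72 h and 5 rose, where 25.7% of all Jun regions fell and 28% rose. From 6 to 72 h, 552 (94.8%) fell and 3 rose, against 13.5% and 12.7% of all Jun regions. Both contrasts share the 72 h libraries. Their median log2 fold changes were −2.32 and −2.80 at the transient regions, and 0.17 and 0.02 over all Jun regions. At other CTCF regions, 50.1% of 26778 tested Jun regions fell from 0 to 72 h with a median of −0.69, and where no H3K27ac region overlapped, 46.1% with a median of −0.79. Scaling by total counts in place of TMM moved the median of all Jun regions to 0.73 and that of the transient regions to −1.76, and 509 still fell. As for Rad21, a transient region may have a Jun region only through the times when Jun was high. The part of this in the counts was not tested.

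Between 0 and 6 h, Jun rose at 93 of the 582 regions (16.0%) and fell at 3, where 13.1% of all Jun regions rose and 12.2% fell. The median log2 fold change was 0.46, against 0.06 over all Jun regions and −0.18 at other CTCF regions. The share of rises was near the background and the share of falls below it. The number of rises was not stable: it was 157 with scaling by total counts, 36 with DESeq2, 31 without 0 h replicate 1 and 50 without 6 h replicate 1. Of all Jun counts, the transient regions held 0.611 and 0.610% at 0 h, 0.960 and 0.831% after 6 h, then 0.174 and 0.144% after 72 h (0.611 ± 0.000780, 0.896 ± 0.0910 and 0.159 ± 0.0209, mean ± SD, n = 2 each). Deposited Jun peaks had the same order, on 22.5 and 23% of transient regions at 0 h, 26.6 and 29.6% after 6 h, then 15.0 and 12.6% after 72 h. At other CTCF regions, Jun peaks were most frequent in the 72 h libraries, the deepest ones, at 33.1 and 33.2%. In the counts, 17.5% of the tested Jun regions there rose from 0 to 72 h and 50.1% fell. The part of depth in the number of peaks was not tested.

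**Figure D2:**
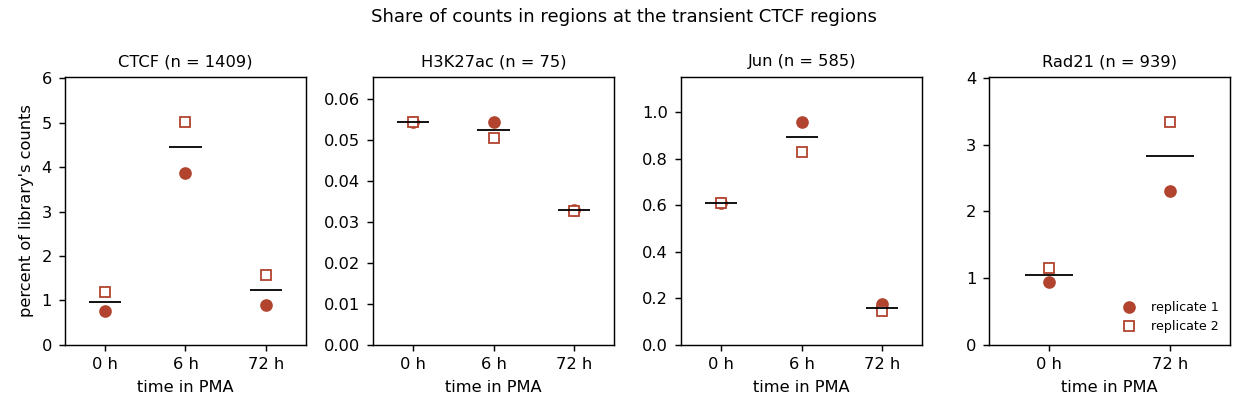
Percent of each library's counts in regions that fell on transient CTCF regions, by antibody and time (circles, replicate 1; squares, replicate 2; lines, means; each panel has its own axis from 0). CTCF is highest at 6 h (3.87 and 5.02%), Rad21 is higher at 72 h (2.31 and 3.34%) and Jun is lowest at 72 h (0.174 and 0.144%).

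The fall of Jun and the rise of Rad21 were each called at most transient regions tested for both. Among 566 transient regions tested for both from 0 to 72 h, Jun fell at 544 and Rad21 rose at 512. Both changes were called at 493 (87.1%), which is 90.6% of the regions where Jun fell and 96.3% of those where Rad21 rose. As each change alone was called at most of the 566, a large overlap follows from these counts. A link between the changes within the transient regions was not tested. Among 23536 other CTCF regions tested for both, 1096 (4.66%) showed both changes, and among the 5455 of these with no H3K27ac region 9.79% did. At the other 23536 regions, Jun fell at 13204 and Rad21 rose at 4868. There, both changes met at 8.30% of the regions where Jun fell and 22.5% of those where Rad21 rose. The Jun and Rad21 libraries are separate from each other and from the CTCF libraries. CTCF regions chosen by the exchanged rules stood elsewhere. At those high at 72 h, Jun rose from 0 to 72 h at 59.3% of 1862 tested regions and Rad21 at 63.5% of 1453. At those high at 0 h, Jun fell at 89.6% of 106 and Rad21 at 22.8% of 114. A rise of Rad21 was thus frequent in both sets with more CTCF after PMA, while Jun fell at the transient regions and rose at most regions that gained CTCF by 72 h. The sets also differed in acetylation. An H3K27ac region overlapped 1630 of the 2181 regions high at 72 h and 75 of the 1409 transient regions. The difference in Jun between these sets, and the part of acetylation in it, were not tested.

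**Figure D3:**
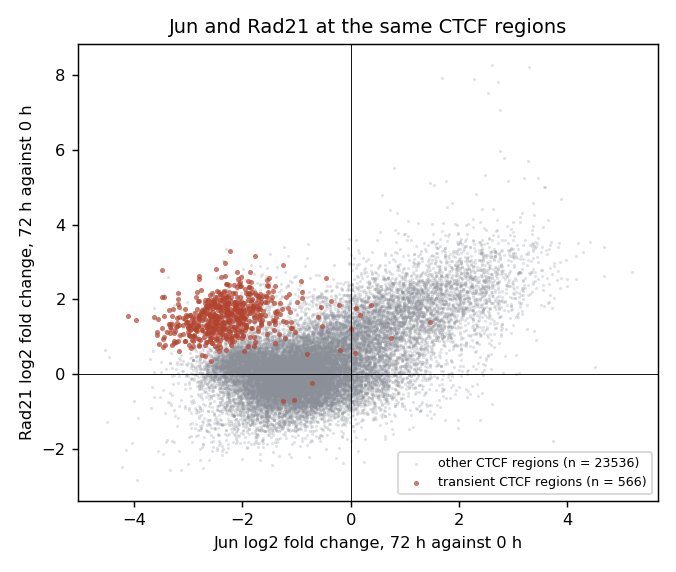
Log2 fold change from 0 to 72 h of Jun (x axis) and Rad21 (y axis) at each CTCF region tested for both, for 566 transient regions and 23536 others. Most transient regions lie in the upper left part, with Jun down (median −2.32 over all 582 tested) and Rad21 up (median 1.54 over all 928 tested).

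**Figure D4:**
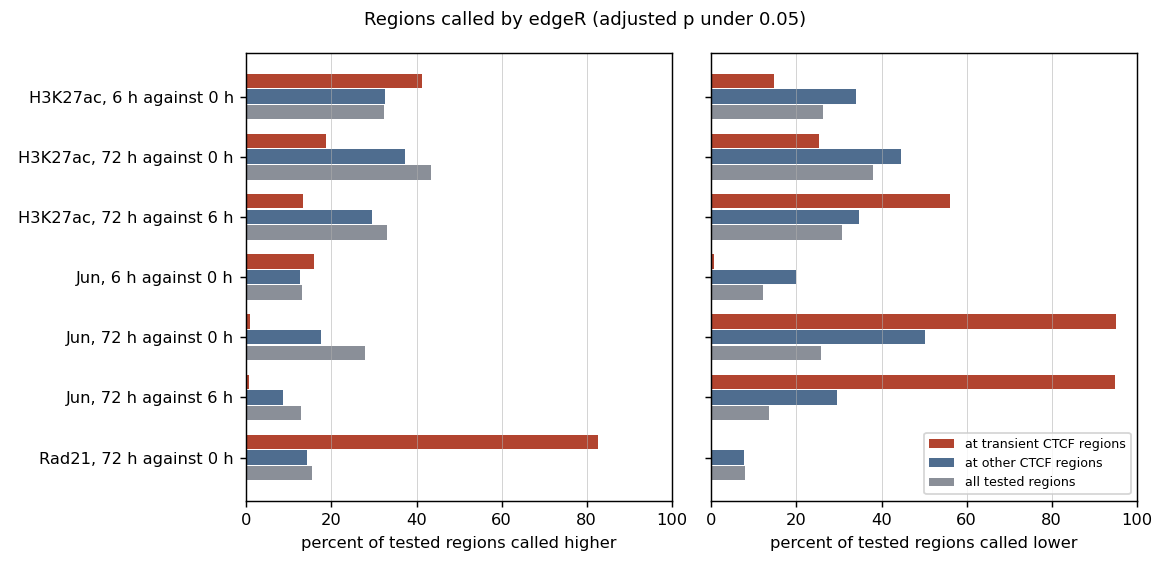
Percent of tested regions called higher (left) or lower (right) by edgeR at an adjusted p under 0.05, for regions at transient CTCF regions, at other CTCF regions, and all tested regions of the antibody. The bars of the transient regions stand out for Rad21 higher at 72 h (82.7%) and for Jun lower at 72 h (95.0% against 0 h).

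CTCF levels correlated with Jun levels and with Rad21 levels across the transient regions that overlapped a region of that protein. A correlation between Jun and Rad21 was not computed. The Pearson correlation of log2 CPM between a CTCF library at 6 h and a Jun library at 0 h was 0.787 to 0.859 over 585 regions, and with Jun at 6 h 0.773 to 0.859. With Jun at 72 h, when most of the signal was gone, it was 0.555 to 0.667. CTCF at 6 h correlated with Rad21 at 0 h at 0.822 to 0.876 and with Rad21 at 72 h at 0.896 to 0.924, over 939 regions. These correlations were not particular to CTCF at 6 h. With Jun at 0 h, CTCF at 0 h gave 0.774 to 0.831 and CTCF at 72 h 0.808 to 0.830. With Rad21 at 72 h, they gave 0.836 to 0.865 and 0.894 to 0.945. At the other CTCF regions the ranges for CTCF at 6 h were −0.0358 to 0.0889 with Jun at 0 h and 0.103 to 0.30 with Rad21 at 72 h. Without an H3K27ac region they were 0.0967 to 0.320 and 0.219 to 0.501. These are descriptions across regions, which are not replicates, and regions share their libraries. CTCF was read over the CTCF region, while Jun and Rad21 were read over their own overlapping regions, whose widths may differ. The part of width in the correlations was not tested. The region tables of the antibodies also hold only places where the authors defined a region.

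**Figure D5:**
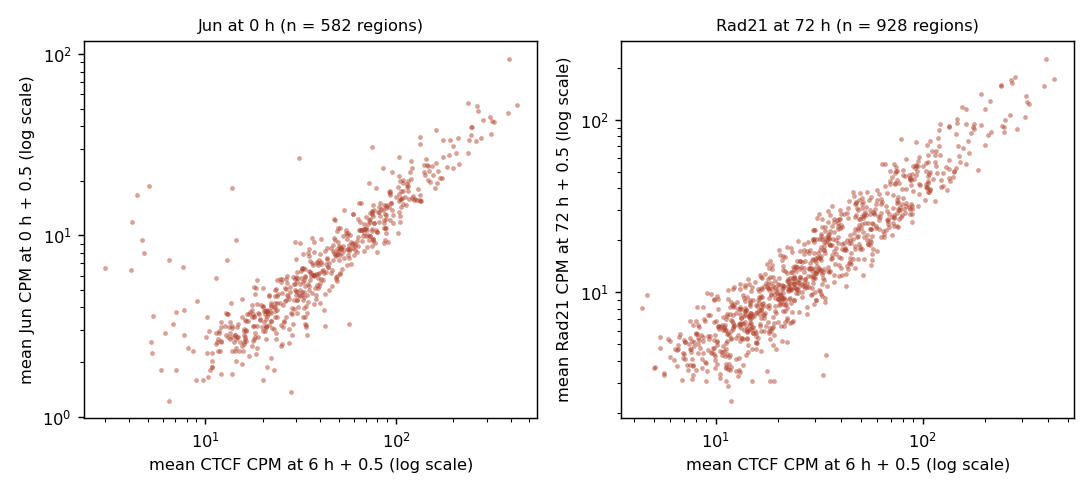
Mean CTCF CPM at 6 h against mean Jun CPM at 0 h (left, 582 transient regions) and mean Rad21 CPM at 72 h (right, 928), with 0.5 added, both axes logarithmic. Regions with more CTCF at 6 h had more Jun before treatment and more Rad21 at 72 h, apart from a few regions with low CTCF and high Jun on the left side. Correlations with CTCF at 0 and 72 h (not drawn) were similar.

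Acetylated histone was rare at the transient regions. An H3K27ac region overlapped 75 (5.32%) of them, against 37.3% of other CTCF regions, and a deposited H3K27ac peak lay on 0.923 to 2.27% in any library. Seen from the other side, 0.314% of the CTCF regions with an H3K27ac region were transient and 3.22% of those without one. At these 75 the median was 1.08 and 1.16 CPM at 0 h, 2.24 and 1.57 after 6 h, then 1.09 and 1.09 after 72 h. The 6 h medians lay above the others, at levels far under the 8.75 to 11.7 CPM of other CTCF regions. From 0 to 6 h H3K27ac rose at 31 of 75 (41.3%) and fell at 11 (14.7%), where 32.3% of all H3K27ac regions rose and 26.3% fell. From 6 to 72 h it rose at 10 and fell at 42 (56.0%), where 33.1% rose and 30.8% fell, and from 0 to 72 h it rose at 14 and fell at 19, where 43.4% rose and 38.1% fell. Median log2 fold changes were 0.86 from 0 to 6 h, −1.08 from 6 to 72 h and −0.20 from 0 to 72 h (0.03 when scaled by total counts), against 0.20, 0.02 and 0.18 over all H3K27ac regions. These contrasts share libraries. The 48 regions in the highest of the 3 groups by CTCF at 6 h held 24 of the 31 rises from 0 to 6 h, and the 20 in the lowest group held 9 of the 11 falls. The summed share of H3K27ac counts on these regions did not follow the medians: it was 0.0544 and 0.0545% at 0 h, 0.0543 and 0.0505% after 6 h, then 0.0330 and 0.0327% after 72 h.

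The counts of H3K27ac calls depended on the setting. DESeq2 called 14 rises from 0 to 6 h and 27 falls from 6 to 72 h. The rises numbered 17 without 0 h replicate 1 and 19 without 6 h replicate 1, and the falls 27 without 72 h replicate 1. With regions of a mean count of at least 50 alone, 23 were left and their median log2 fold change from 0 to 6 h was −0.01.

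The strongest transient regions show the pattern one by one. In the 10 with the highest CTCF at 6 h (268 to 429 CPM, 351 to 457 bases wide), Jun fell from 0 to 72 h at all 10, by log2 fold changes of −3.10 to −1.54, and Rad21 rose at all 10, by 0.89 to 2.53. The region in AKAP9, a scaffold that holds protein kinase A at centrosome and Golgi, stands highest (chr7:91967563-91967913). Its CTCF values were 63.8 and 92.2 CPM at 0 h, 346 and 511 after 6 h, then 67.0 and 120 after 72 h. Its Jun values were 60.4 and 43.1, 59.5 and 61.7, and 9.70 and 5.56 CPM, so 0 and 6 h overlap and 72 h is apart (−2.77 ± 0.24 from 0 to 72 h, edgeR adjusted p = 2.14e-08). Its Rad21 values were 40.3 and 68.6 CPM at 0 h and 126 and 218 at 72 h (1.67 ± 0.277, adjusted p = 0.000184).

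Other strong regions lay both inside and far from genes. At chr11:17488062-17488413, 5487 bases from USH1C, a scaffold protein of sensory hair cells, CTCF was 58.9 and 82.1 CPM at 0 h, 261 and 358 after 6 h, then 47.1 and 77.1 after 72 h. There H3K27ac rose at 6 h, from 0.965 and 1.58 to 4.20 and 2.66 CPM (1.40 ± 0.381, adjusted p = 0.00289), and Jun fell by 72 h with a log2 fold change of −3.10 ± 0.226 (adjusted p = 5.19e-09). The region at chr21:42177634-42178002, 21687 bases from the cholesterol transporter ABCG1, had the largest Rad21 rise of the 10, from 28.0 and 33.3 CPM to 127 and 226 (2.53 ± 0.270, adjusted p = 3.24e-06). In MIR325HG, a noncoding gene on the X chromosome, CTCF went from 61.2 and 85.3 CPM to 319 and 451 and back to 61.8 and 141 (chrX:76722087-76722446). The region that overlaps the promoter window of PTPRH, a receptor phosphatase, by 10 bases is also among the 10 (chr19:55209081-55209461). Its Jun values rose from 38.2 and 57.8 CPM at 0 h to 112 and 77.2 at 6 h (0.98 ± 0.228, adjusted p = 0.00298) and were 12.3 and 9.30 at 72 h.

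The regions with the largest ratios were weaker ones. Among members at or above the median CPM at 6 h, the 10 with the largest smallest ratio (4.88 to 6.05) had 18.3 to 102 CPM. Of these, 4 were tested for Jun, which fell by 72 h at all 4, and 7 for Rad21, which rose at 6. The highest ratio was at chr9:28988026-28988273 in LINGO2, a membrane protein of neurons, where CTCF went from 0 and 2.75 CPM to 14.6 and 25.9 and back to 0.612 and 3.87, with 0 and 6 counts at 0 h. Near TMEM161B (chr5:88293805-88294156), CTCF was 6.15 and 10.1, 37.8 and 62.5, and 7.04 and 11.2 CPM. No Jun region lay there, and Rad21 rose from 6.13 and 7.18 to 14.1 and 20.4 CPM (1.37 ± 0.294, adjusted p = 0.00186).

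The largest called changes of Jun from 0 to 6 h, rises of Rad21 and falls of H3K27ac from 0 to 6 h lay at weak CTCF regions. Their mean CTCF at 6 h was below the median of 15.5 CPM. The part of low counts in this ranking by fold change was not tested. Of the largest rises of H3K27ac from 0 to 6 h, those at chr12:118652981-118653360, at chr1:51061189-51061567 and in BCAR3 lay at stronger regions. These had a mean of 198, 116 and 52.6 CPM of CTCF at 6 h. Rad21 rose most at chr11:23331351-23331550, far from any protein-coding gene (CCDC179 is 470877 bases away), from 0.314 and 0.844 CPM to 5.51 and 11.7 (3.91 ± 0.583, adjusted p = 6.09e-05). In NDUFAF5, an assembly factor of respiratory complex I, it went from 2 and 3 counts to 26 and 30 (3.32 ± 0.680, adjusted p = 0.00128). At chr3:33392765-33392964, where the genes FBXL2 and UBP1 overlap, Jun rose from 2.63 and 3.58 CPM at 0 h to 7.94 and 10.9 at 6 h (1.61 ± 0.325, adjusted p = 0.000874) and stayed at 7.32 and 5.64 at 72 h. This is 1 of the 5 transient regions where Jun rose from 0 to 72 h in the test, and its H3K27ac rose as well, from 5 and 5 counts to 30 and 28 (2.62 ± 0.583, adjusted p = 0.000432). In BCAR3, an adaptor in integrin signalling, H3K27ac kept rising, from 0.454 and 0.211 CPM through 1.89 and 0.984 to 4.23 and 3.90 (3.61 ± 0.426 from 0 to 72 h, adjusted p = 2.71e-08). Falling acetylation is seen in NXPH1, a secreted ligand of neurexins, with 21.7 and 20.7 CPM at 0 h, 9.59 and 9.06 after 6 h, then 1.99 and 2.88 after 72 h (−3.12 ± 0.174, adjusted p = 1.21e-14). Jun at NXPH1 fell between 0 and 6 h as well, from 4.38 and 9.32 to 3.18 and 2.74 CPM (−1.22 ± 0.422, adjusted p = 0.0380).

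The transient regions lay farther from gene starts, with fewer genes around them, than other CTCF regions. The median distance to the nearest gene start was 46621 bases, against 23237 for other CTCF regions and 32204 for those without an H3K27ac region (regions on chromosomes with promoter windows, 1337 of the 1409). A gene start lay within 1 kb of 11 regions (0.823%), against 14.1% of other CTCF regions and 4.09% of those without an H3K27ac region. The span of a protein-coding gene covered 41.5% of transient regions, 50.7% of the others and 45.1% of the others without an H3K27ac region. No protein-coding gene lay within 500 kb of 11.6%, 7.18% and 10.3% of these sets, and the median number of protein-coding genes in that flank was 4, 8 and 6. On these measures the transient regions were nearer to the CTCF regions without an H3K27ac region than to the others as a whole. The regions were narrower, at a median of 311 bases against 406 for the others and 416 for those without an H3K27ac region. They made up 5.49% of the CTCF regions of chromosome X, 4.70% of chromosome 4 and 3.23% of chromosome 3, but 0.490% of chromosome 22, 0.612% of chromosome 19 and 0.828% of chromosome 17.

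Few transient regions, and few other CTCF regions, lay nearest to genes of PMA response or blood lineage. The counts are small, and differences between these sets were not tested. Of 41 early PMA response genes, 2 were the nearest protein-coding gene of a transient region (0.142% of them, 0.516% of other CTCF regions). These regions lie 161243 bases from NR4A2, an orphan nuclear receptor induced by many stimuli, and 696125 bases from SPRY2, a feedback inhibitor of Ras signalling. No transient region was nearest to any of 20 megakaryocyte genes, with 0.156% of other CTCF regions. The 27 erythroid genes had 2 (0.142%, against 0.128%), in ALAS2, the first enzyme of heme synthesis in red cells, and 5399 bases from AHSP, the chaperone of free alpha globin. The ALAS2 region (chrX:55025803-55026182) was strong, with CTCF at 56.7 and 89.4 CPM at 0 h, 240 and 291 after 6 h, then 61.5 and 136 after 72 h. Its Jun went from 47.5 and 54.8 CPM to 97.2 and 75 and then to 11.8 and 9.46, a rise and a fall that both passed the test (0.75 ± 0.198, adjusted p = 0.00773 from 0 to 6 h and −3.02 ± 0.211, adjusted p = 1.72e-08 from 6 to 72 h). Rad21 there rose from 65.9 and 63.5 to 142 and 196 CPM (1.38 ± 0.232, adjusted p = 0.000198). Near AHSP (chr16:31522121-31522501), CTCF was lower, at 6.48 and 12.8 CPM, then 51.3 and 46.3, then 13.8 and 20.3. Jun fell there from 6.42 and 8.31 CPM before treatment to 1.52 and 1.15 after 72 h (−2.46 ± 0.30, adjusted p = 9.98e-07), and Rad21 rose from 7.55 and 11.4 to 22.5 and 25.6 CPM (1.36 ± 0.272, adjusted p = 0.00104).

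Of 19 genes of CTCF and cohesin themselves, 4 had a transient region nearest to them (0.284% of transient regions, 0.111% of the others). The region in the CTCF gene (chr16:67639013-67639393) had 6.15 and 4.59 CPM at 0 h, 15.4 and 18.8 after 6 h, then 3.36 and 5.61 after 72 h. Rad21 there rose from 4.72 and 5.28 to 9.23 and 11.3 CPM (1.04 ± 0.325, adjusted p = 0.0241), and Jun fell from 2.19 and 3.87 to 0.856 and 0.552 CPM between 0 and 72 h (−2.10 ± 0.484, adjusted p = 0.00101). PDS5A, a regulator of cohesin release, held a region with 4.86 and 6.88, 15.8 and 18.3, and 2.75 and 5.61 CPM of CTCF, and its Rad21 missed the threshold (1.00 ± 0.371, adjusted p = 0.0540). The region in NIPBL, the loader of cohesin, rested on 7 and 1, 17 and 5, and 1 and 3 CTCF counts. Near PDS5B, a paralog of PDS5A 109297 bases away, Rad21 rose with a log2 fold change of 2.65 (adjusted p = 0.000677).

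In the authors' deposited table, most transient regions carried no label of change. It labelled 942 of the 1409 static, 301 upEarly, 141 upLate, 22 downEarly and 3 downLate, and gave no adjusted p for 206. Both adjusted p columns of the authors' deposited table held the same values in all 65346 rows. The 25 with a down label had log2 fold changes against 0 h of 2.05 to 3.01 at 6 h in the authors' deposited table itself. At 72 h they were −0.0128 to 0.927. The label and the 6 h value thus differ in direction. Whether the label refers to the later fall from 6 to 72 h was not tested. Of the other CTCF regions, 99.5% were labelled static in the authors' deposited table. For the Rad21 regions at transient regions, the authors' deposited table labelled 860 static and 79 up. Of the 585 Jun regions, the authors' deposited table labelled 213 static, 165 upLate, 125 downEarly, 74 downLate and 8 upEarly. Those labels stand beside a fall by 72 h at 553 of 582 in the test used here.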

How the data were processed

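Members, gene lists and comparisons were chosen with earlier results of these data known. For each antibody, the authors deposited 1 table of regions with unnormalised counts of every library. Per the file headers, it also gives log2 fold changes and adjusted p-values, which are only quoted here. The deposited peak lists, 1 per library, hold the authors' fold enrichment (a ratio), −log10 p-value and −log10 q-value per peak. Per the submitters' processing notes, Trim Galore 0.4.3, BWA 0.7.17, SAMtools 1.9, deepTools 3.0.1, MACS2 and bedtools 2.26 were used, and the builds hg19 and hg38 are both named. How regions were built and counted is not given in the sources used here. The tables reach position 64331078 on chromosome 20, past the end of that chromosome in hg19, and their contigs are named as in GRCh38, so coordinates were read as GRCh38. Table starts count from 0 and are printed 1-based.

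Counts were tested with edgeR 4.0.16 (R 4.3.3): filterByExpr, TMM (scaling by a trimmed mean of log ratios) and quasi-likelihood F tests over all times of an antibody and all its regions, Benjamini-Hochberg adjusted p under 0.05, without a replicate block. SE is the fold change divided by the root of F. DESeq2 1.42.0, other scalings and filters, and leaving out libraries were alternatives. CPM of the rule used plain totals, and CPM of Jun, Rad21 and H3K27ac used TMM. A transient region took the region of another table with the longest overlap (at least 1 base, bedtools 2.31.1). Nearest genes and promoter windows came from RefSeq, GRCh38.p14. Named regions were those with the largest ratios or 6 h levels, the largest called changes of Jun, Rad21 and H3K27ac with groups apart, the edge of the rule, and the gene lists. Those overlapping a promoter window were added after the data were seen. Replicates differed by more than sampling noise (chi-square per degree of freedom 2.15 to 6.74). The comparison with CTCF regions lacking an H3K27ac region was chosen after seeing the data. Counts on the mitochondrial chromosome, chromosome Y and unplaced contigs were left out.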

Additional observations from a re-analysis of the deposited data

Results flagged for a closer look

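Of 694 CTCF regions on the mitochondrial chromosome and unplaced contigs, 1, on an unplaced contig, met the same ratios between times in both replicates. Its counts were 24 and 21 before treatment. They stood at 70 and 88 after 6 h, then 33 and 79 after 72 h. It was noted because it lies in data that the comparisons above do not use.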

How the results depend on the processing

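The number of transient regions was 2328 with ratios of at least 1.5, 445 with at least 3, 2852 without replicate 1 and 2828 without replicate 2. With a replicate block, 28 H3K27ac regions were called higher from 0 to 6 h, 547 Jun regions lower from 0 to 72 h and 784 Rad21 regions higher, and the block moved no count of calls by more than 1.5 times. Deviations of same-numbered replicates correlated at −0.0220 to 0.124 across the pairs of times, and nothing in the labels pairs them. With mean counts of at least 50, H3K27ac calls were 9 higher from 0 to 6 h, 7 higher and 12 lower from 0 to 72 h, and 5 higher and 11 lower from 6 to 72 h. This filter left 23 H3K27ac regions, and their median log2 fold change from 0 to 6 h turned to −0.0077. It left 222 Jun regions, of which 209 fell from 0 to 72 h and 208 from 6 to 72 h, and 442 Rad21 regions, of which 433 rose: fewer regions were tested. DESeq2 called 14 H3K27ac regions higher from 0 to 6 h, 6 higher and 27 lower from 6 to 72 h, 36 Jun regions higher from 0 to 6 h, 1 higher from 0 to 72 h and 0 higher from 6 to 72 h. Scaling by total counts gave 157 Jun regions higher from 0 to 6 h and turned the H3K27ac median from 0 to 72 h to 0.027. That scaling moved the median of all regions from 0.20 to 0.53 for H3K27ac from 0 to 6 h, and from −0.05 to −0.25 for Rad21. Requiring cover of 50% of the CTCF region left 3 Jun regions higher from 0 to 72 h. The causes of the moves under DESeq2 and other scalings were not tested.

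Leaving out 1 library at a time gave 17 to 30 H3K27ac rises from 0 to 6 h, 6 to 8 rises and 27 to 40 falls from 6 to 72 h. Jun gave 31 to 82 rises and 1 to 6 falls from 0 to 6 h, 1 to 4 rises and 507 to 521 falls from 0 to 72 h, and 0 to 4 rises and 499 to 532 falls from 6 to 72 h. Rad21 gave 399 to 781 rises and 0 to 1 falls. A lone library left in a group was assumed to vary like the other groups.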
